A study of Mus musculus with 2 samples.

Results

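The small nuclear RNAs, small nucleolar RNAs (snoRNAs), small Cajal body RNAs (scaRNAs), 5S ribosomal RNA, 7SK RNA and the RNAs of RNase P and RNase MRP were measured in ESREs (Extensively Self Renewing Erythroblasts), mouse red cell precursors with a long capacity for division ex vivo. Rows were taken by gene symbol and selected on their FPKM, a fragment number scaled by transcript length and library size, which had to reach 1 in either group. Of 125 rows with such symbols among 25791 rows of the table, 88 entered, and 35 of the other 37 were listed at 0 in both groups. ESREs kept in expansion were set beside ESREs matured for 1 day, both on the C57/bl6 background, and the series title names transgenic β-Yac mice as their source. Which samples carry the transgene is not given in the sample labels used here. Duplicates are mentioned in the design, yet every row has a single value for each group, so no value below has a replicate check, an SD or a p-value.

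The FPKM values chose the rows, so levels and counts are given as a description. The measured rows began well above the threshold: the lowest were Snord23 at 1.51 FPKM in expansion and Snord7 at 1.90 in maturation, and the highest rows left out were Rnu7, the U7 RNA of histone mRNA processing, at 0.119 and 0.126 FPKM and Snord123 at 0.00571 and 0.00745. Of the 88 rows, 73 had an FPKM of at least 1 in both groups. The others entered through 1 group and therefore had to differ between the groups. They were 8 rows listed at 0 in expansion, 6 listed at 0 in maturation, and Rnu12.

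The spliceosomal snRNAs base-pair with splice sites and branch points and form the core of the spliceosome. U3 is an abundant nucleolar RNA required for cleavage of the ribosomal RNA precursor, 7SK holds the transcription elongation factor P-TEFb in an inactive complex, RNase P trims the leader of transfer RNAs, RNase MRP cleaves pre-ribosomal RNA, and the 5S RNA is part of the large ribosomal subunit. Most box C/D snoRNAs guide ribose methylation and most box H/ACA snoRNAs guide pseudouridylation of ribosomal RNA, and both kinds are mostly cut out of introns of host genes. Maturing erythroblasts reduce ribosome production as they approach their last divisions. These RNAs mostly lack a poly(A) tail, and the labels do not say how poly(A) selection, removal of ribosomal RNA or size selection was handled. They do not state strand either, so fragments of a short RNA and of a longer gene across the same bases cannot be told apart.

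The sequences of the RNAs on which the values below turn come from GENCODE M21 transcripts on GRCm38, matched by symbol or, for Rnu2, by a RefSeq synonym. Of the 88 rows, 87 had a GENCODE sequence. The U3 copies are shown first because they had the widest difference in summed level, with capitals at the bases that differ between Rnu3b1 and Rnu3a.
Rnu3b1: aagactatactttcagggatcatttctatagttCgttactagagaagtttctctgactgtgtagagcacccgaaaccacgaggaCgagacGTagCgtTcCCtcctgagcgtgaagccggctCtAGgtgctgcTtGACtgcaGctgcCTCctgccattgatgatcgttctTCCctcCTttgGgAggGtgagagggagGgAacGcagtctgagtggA
Rnu3a: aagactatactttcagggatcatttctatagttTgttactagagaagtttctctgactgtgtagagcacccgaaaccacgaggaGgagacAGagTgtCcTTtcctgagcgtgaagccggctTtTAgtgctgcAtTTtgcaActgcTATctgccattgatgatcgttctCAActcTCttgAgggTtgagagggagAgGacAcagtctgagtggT
The U1 and U2 RNAs follow, as the RNAs of the major spliceosome with the highest FPKM, with capitals at the stretch of U1 that pairs with the 5′ splice site (ACTTACCTG) and at the branch point recognition stretch of U2 (GTAGTA). Among 1383 GENCODE snRNA transcripts, pseudogene copies included and searched on the RNA strand only, 3.98% held ACTTACCTG and 3.69% held GTAGTA.
Rnu1b1: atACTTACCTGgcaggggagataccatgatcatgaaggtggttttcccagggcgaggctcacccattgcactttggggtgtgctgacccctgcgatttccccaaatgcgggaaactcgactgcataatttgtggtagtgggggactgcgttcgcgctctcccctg
Rnu1a1: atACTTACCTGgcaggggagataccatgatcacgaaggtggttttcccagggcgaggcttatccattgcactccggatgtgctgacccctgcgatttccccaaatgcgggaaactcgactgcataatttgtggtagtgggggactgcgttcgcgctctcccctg
Rnu2: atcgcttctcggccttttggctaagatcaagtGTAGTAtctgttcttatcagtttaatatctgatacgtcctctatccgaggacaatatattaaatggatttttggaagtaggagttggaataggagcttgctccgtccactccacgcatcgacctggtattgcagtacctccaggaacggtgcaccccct
A choice of box C/D RNAs described below is shown: Snord57 and Snord118, which were higher with values in both groups, Snord88a, Snord88c and Rnu73b, which were lower, and Snord95 with Snord96a from the same host. They have capitals at the first TGATGA (the box C core) and the last CTGA (box D), and a box with no exact match is left in lower case. TGATGA was found in 28 of 39 box C/D rows with a sequence and in 75.5% of all 98 GENCODE transcripts named Snord, and CTGA in 39 of 39 rows and in 98 of those 98 transcripts, on the RNA strand only.
Snord57: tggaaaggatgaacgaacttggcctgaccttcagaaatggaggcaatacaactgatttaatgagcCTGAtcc
Snord95: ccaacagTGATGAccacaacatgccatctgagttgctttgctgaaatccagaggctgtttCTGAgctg
Snord96a: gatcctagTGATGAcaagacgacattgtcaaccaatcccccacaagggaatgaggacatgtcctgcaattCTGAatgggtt
Snord88a: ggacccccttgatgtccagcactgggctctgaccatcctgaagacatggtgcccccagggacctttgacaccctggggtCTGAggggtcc
Snord88c: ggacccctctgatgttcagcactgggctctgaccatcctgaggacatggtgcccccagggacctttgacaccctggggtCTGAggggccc
Rnu73b: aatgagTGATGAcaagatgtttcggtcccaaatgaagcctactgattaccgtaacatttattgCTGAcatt
Snord118: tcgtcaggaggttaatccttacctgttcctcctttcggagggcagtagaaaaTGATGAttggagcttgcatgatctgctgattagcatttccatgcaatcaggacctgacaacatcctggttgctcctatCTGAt
Of the box H/ACA RNAs, Snora24 was the row listed at 0 in maturation and Snora73a the most abundant, with capitals at the ACA box. An ACA in the last 10 bases was found in 24 of 24 box H/ACA rows and in 95.2% of 42 GENCODE transcripts named Snora.
Snora24: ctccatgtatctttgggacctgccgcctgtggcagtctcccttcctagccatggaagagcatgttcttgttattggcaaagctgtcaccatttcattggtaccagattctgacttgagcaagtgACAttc
Snora73a: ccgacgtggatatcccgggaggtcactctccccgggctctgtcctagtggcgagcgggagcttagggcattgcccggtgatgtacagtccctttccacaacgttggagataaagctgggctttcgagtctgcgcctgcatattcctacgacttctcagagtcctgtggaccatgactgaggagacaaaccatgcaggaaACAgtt

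Most rows of the group made up of the snRNAs, U3, 7SK, 5S and the RNAs of RNase P and RNase MRP stood higher in maturation, whereas the guide RNAs lay on both sides of 0. A row is counted here as higher or lower when the log2 ratio of maturation over expansion, computed on FPKM + 1, was at least 1 or at most -1, so that ratios of low rows are understated. Rows between these marks are said to lie within the mark, and the plain ratio of 2 low FPKM values can be over 2 there. Of the 17 rows of the former group, 16 were higher and 0 were lower, with a median log2 ratio of 1.91, and of those with at least 1 FPKM in both groups 14 of 15 were higher. The other 71 rows (box C/D, box H/ACA and scaRNA) are called guide RNA rows by class. Among them, Snord118 (U8), Snora73a and Snora73b (U17) act in ribosomal RNA processing. U3, a snoRNA with such a role, was counted in the former group. Of these 71 guide RNA rows, 15 were higher and 11 lower, with a median of -0.01. These counts include 7 guide rows listed at 0 in expansion and 6 listed at 0 in maturation, which had to differ. Across the 9263 rows of the table that reached 1 FPKM in either group, 3.13% were higher, 6.7% were lower and the median was -0.25. Over the 88 rows together 31 were higher and 11 lower, with a median of 0.35. Of the 73 rows with at least 1 FPKM in both groups, 22 were higher and 5 lower, with a median of 0.28. After subtraction of the median of the 9263 rows from every ratio, 37 were higher and 10 lower, where 4.53% and 3.92% of the 9263 rows were. Log2 ratios were above 0 for 51 and below 0 for 37 of the 88 rows, against 25.9% and 74.1% of the 9263. Together they summed to 8401 FPKM in expansion and 23604 in maturation, or 2.04% and 5.66% of the table's sum, and leaving out Rn5s lowered these shares to 1.45% and 4.09%. Since FPKM is scaled by transcript length, these are shares of summed FPKM and not of sequenced fragments. Identical or near-identical copies, such as those of U3, each add to the sums, and how their shared reads were assigned is not given.

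**Figure D1:**
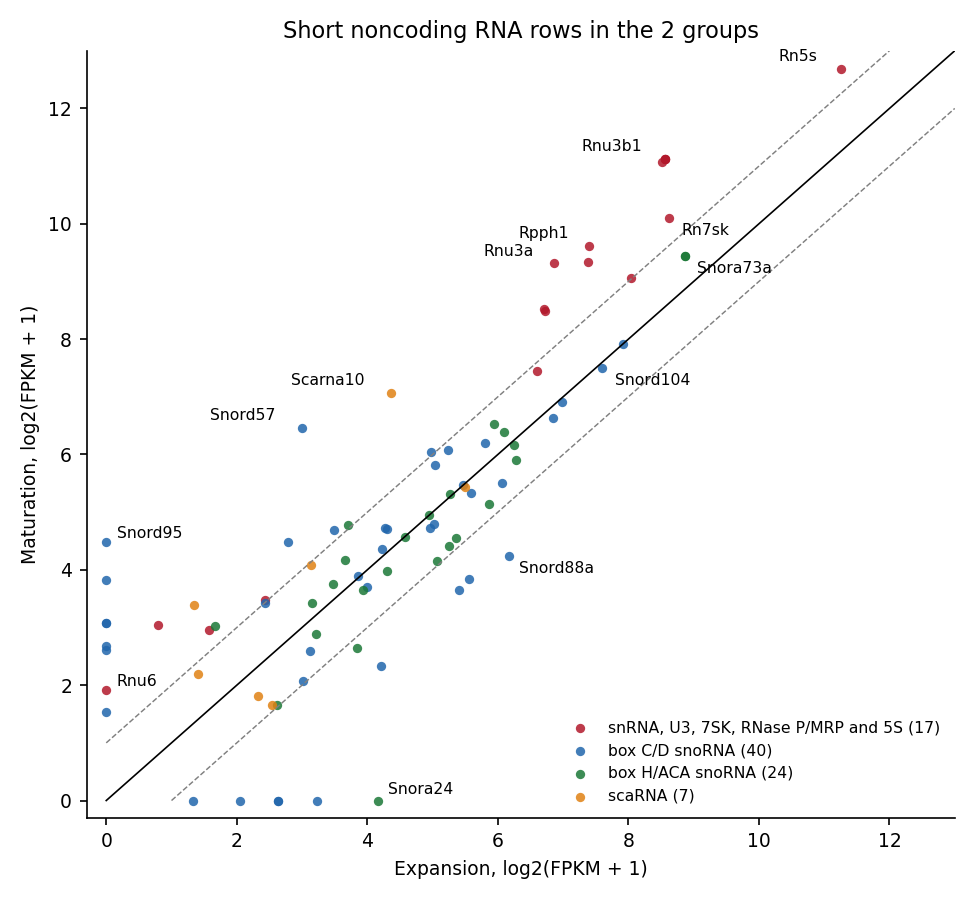
Each point is 1 of the 88 rows, with log2(FPKM + 1) in expansion on the x axis and in maturation on the y axis, coloured by RNA type, with equality as a solid line and a log2 difference of 1 as dashed lines. The points of the snRNA, U3, 7SK, RNase P/MRP and 5S group lie above the line of equality in 17 of 17 rows, while the snoRNA points lie around it.

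Among rows above 100 FPKM in both groups, the U3 rows had the widest differences. Rnu3b1, Rnu3b2 and Rnu3b3 each had 375 FPKM in expansion against 2222 in maturation. Rnu3b4 was at 364 and 2142 FPKM, and Rnu3a at 116 and 641 FPKM. The summed FPKM of the 5 rows was 1606 and 9449, which is 5.88-fold higher, and they made up 19.1% of the summed FPKM of the 88 rows in expansion and 40.0% in maturation. Whether reads matching several copies were divided or counted for each is not given, so these sums may count some reads more than once. The 4 Rnu3b rows are not independent measurements: Rnu3b1, Rnu3b2 and Rnu3b3 are identical in sequence, Rnu3b4 is 99.5% identical to Rnu3b1, and all 4 share 1 locus of the table (mm9, chr11:87218567-87369325). Rnu3a, at chr10:39978382-39978485, is 85.6% identical to Rnu3b1. It differs by 29 mismatches and lacks 2 bases of Rnu3b1, all marked by the capitals above. The fold of Rnu3a was 5.54, close to that of Rnu3b1 at 5.92. Reads from the stretches that both copies share can match either, so these 2 folds may not be independent. The Rnu3b locus also holds Tex14, a gene of germ cell division, in whose introns GENCODE places the 4 copies, and Tex14 was at 0.00455 and 0.00265 FPKM.

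The major spliceosome was represented by U1, U2 and U6 rows. Rnu1b1 (chr3:96163876-96164040) had 104 FPKM before and 367 after maturation, and Rnu1b6 (chr3:96263947-96264112) at 104 and 360. These copies are 98.2% identical and can share reads. Rnu2 (chr11:101519552-101519738) was at 165 and 643 FPKM, 3.90-fold higher. Rnu1a1 was the 1 row of the group below the mark, at 96.0 and 173 FPKM. Its row spans 74 bases (chr1:48519063-48519136) against a RefSeq length of 164 bases, and the Rnu3a row spans 104 against 212, so that the transcript model behind these FPKM values may not be the whole RNA. GENCODE places the Rnu1a1 gene in an intron of Tex14, on another chromosome than the table does, so the sequence shown for it may be that of another copy. Rnu1b2, which is identical in sequence to Rnu1b1, was listed at 1.99 and 6.74 FPKM over a span of 1172 bases. Its level therefore cannot be set beside that of Rnu1b1, although its fold of 3.39 was similar. Rnu6, the catalytic U6 RNA, was listed at 0 in expansion and at 2.76 FPKM in maturation.

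RNAs of the minor spliceosome, which removes a rare class of introns, were measured at far lower levels. Rnu12 was at 0.739 and 7.20 FPKM, and Rnu11 at 4.40 and 10.1 FPKM. Both lay past the mark, with log2 ratios of 2.24 and 1.04.

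The remaining rows of the group each had a locus of their own in the table and stood higher in maturation. The 5S genes are many in the genome, and the row names 1 of them. Rn5s (chr8:126122056-126122176) had 2453 FPKM before and 6551 after maturation, 2.67-fold higher. Rn7sk (chr9:78023109-78023440) was at 393 and 1090 FPKM, 2.77-fold higher. Rpph1, the RNase P RNA (chr14:51427122-51427446), was at 168 and 784 FPKM, 4.66-fold higher. Rmrp, the RNase MRP RNA (chr4:43505657-43505931), differed least of these 4, at 263 and 533 FPKM. RNase P and RNase MRP share most of their proteins, and whether the folds of Rpph1 and Rmrp differ beyond measurement error was not tested. When the copies of U1 and of U3 were summed by name into 1 value each, 10 of 10 RNAs of the group were higher, with a median log2 ratio of 1.74.

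**Figure D2:**
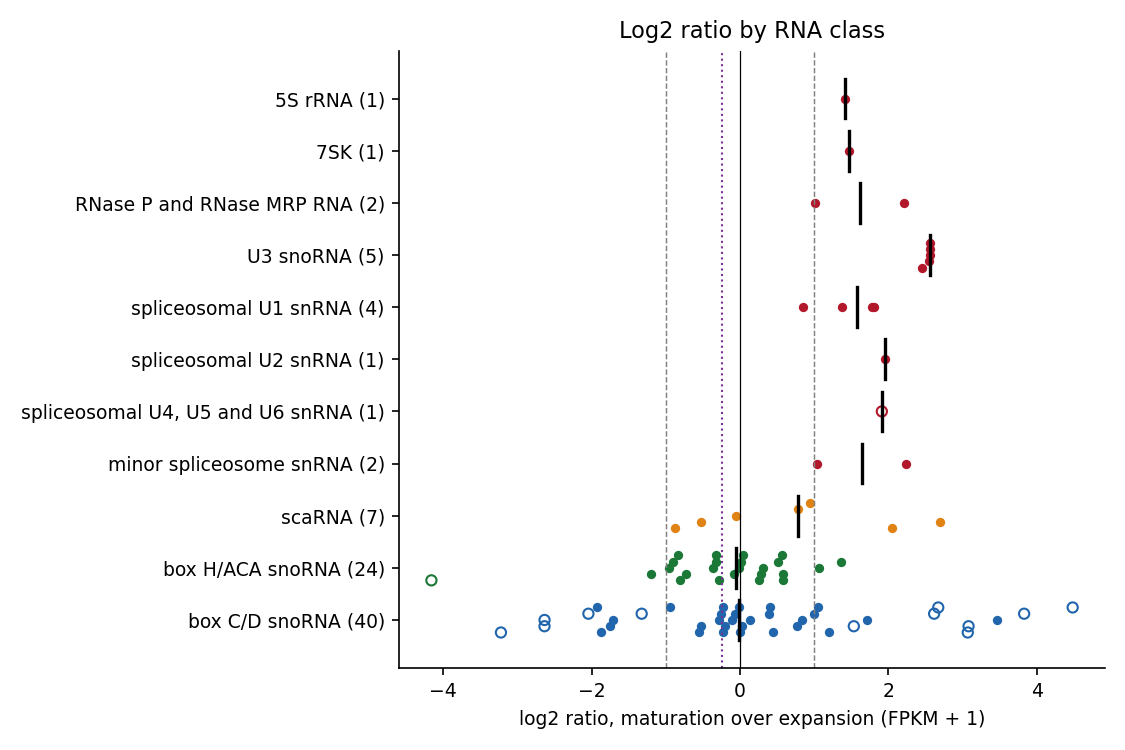
Each point is the log2 ratio of maturation over expansion (FPKM + 1) of 1 row, by RNA class with the number of rows in brackets; open circles are rows listed at 0 in 1 group, black bars are class medians, dashed lines mark ratios of 1 and -1 and the dotted line the median of all expressed rows at -0.25. The U3 rows sit between 2.46 and 2.56, while box C/D rows spread from -3.22 to 4.49.

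The box C/D snoRNAs spread widely around no difference. Of 40 rows, 11 were higher, 9 lower and 20 within the mark, with a median log2 ratio of -0.01 and summed FPKM of 1370 and 1429. These counts are 27.5% higher and 22.5% lower, beside 3.13% and 6.7% of the 9263 rows. Much of the spread came from rows listed at 0 in 1 group: without these 12 rows, 4 of 28 were higher and 4 were lower. The 4 higher rows were Snord57, Snord118, Snord17 and Snord83b. Snord57, a guide for small-subunit ribosomal RNA encoded in an intron of Nop56, was at 6.96 and 86.5 FPKM, 12.4-fold higher. Its expansion value is low for a row of 63 bases. It lay between Snord69 (59 bases, 8.34 FPKM) and Snord2 (68 bases, 5.21 FPKM), both listed at 0 in maturation. The number of fragments behind it is not given, so the fold may rest on few. Snord118 (U8), which acts in the processing of large-subunit ribosomal RNA and has a locus of its own (chr11:68886928-68887064), was at 5.86 and 21.4 FPKM. Snord17 was at 10.2 and 24.7 FPKM and Snord83b at 30.6 and 64.7 FPKM.

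The lower box C/D rows with values in both groups came from 3 loci. Snord88a and Snord88c share a locus (chr7:51502092-51507689) and were at 71.1 and 17.9 FPKM, and at 45.9 and 13.4 FPKM. They are 94.4% identical over 90 bases, so the pair counts as little more than 1 observation. Snord12, in an intron of the noncoding gene Zfas1, was at 41.2 and 11.6 FPKM. Rnu73b, in an intron of the ribosomal protein gene listed as Rps3a, was at 17.4 and 4.03 FPKM. The abundant box C/D rows lay near no difference. Snord22, within Snhg1, was at 241 and 239 FPKM, and Snord104 at 193 and 179. Snord96a was at 125 and 119 FPKM and Snord16a at 114 and 98.8. Snord13 (U13), a nucleolar RNA with its own locus (chr8:32260333-32260430), was at 7.73 and 5.04 FPKM.

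Rows listed at 0 in 1 group were short and mostly low in the other, and no fold is given for them since an exact 0 can be a failed estimate. Besides Rnu6, the rows at 0 in expansion were Snord95, at 21.4 FPKM in maturation, Snord43 at 13.2, Snord52 at 7.46, Snord49a at 7.40, Snord82 at 5.38, Snord34 at 5.14 and Snord7 at 1.90. Those at 0 in maturation were Snora24, at 16.9 FPKM in expansion, Snord69 at 8.34, Snord2 and Snord53 at 5.21 each, Snord67 at 3.12 and Snord23 at 1.51. Some short rows of equal RefSeq length took recurring values, a check made after the values were seen. In expansion the 68-base rows Snord2 and Snord53 stood at 5.21 FPKM and Mir204, a microRNA row of the same length, at 5.24. At 85 bases, Mir26b and Mir425 were both at 2.50 FPKM and Mir877 at 4.99, a ratio of 2.0. In maturation the 68-base Snord82 was at 5.38 FPKM, and Snord95 stood at 3.98 times that value. That ratio fell just outside the tolerance of 0.02 around a whole number, so this pair is not counted as a recurring value. Of the other 10 of the 14 rows listed at 0, 4 had no row of equal length to compare. The remaining 6 stood at other ratios to the lowest such row, such as 3.28 for Snora24 against Snora62 and 0.875 for Snord67 against Mir671. The number of fragments behind a value is not given by the table, so whether these rows differ beyond counting error could not be tested.

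Box H/ACA snoRNAs differed less. Of 24 rows, 2 were higher and 2 lower, with a median log2 ratio of -0.05, and with a pseudocount of 5 none was higher and 1 was lower. The main counts are 8.33% each way, beside 3.13% higher and 6.7% lower of the 9263 rows. The higher rows were Snora23, within the importin gene Ipo7, at 2.18 and 7.17 FPKM, and Snora74a at 12.04 and 26.3 FPKM. The lower rows were Snora69, within Rpl39, at 13.3 and 5.26 FPKM, and Snora24, within Snhg8. Snora73a and Snora73b, the U17 RNAs of pre-ribosomal RNA processing, were the most abundant guide-type rows. Snora73a was at 466 and 694 FPKM and Snora73b at 465 and 692, both 1.49-fold higher. They share a locus (chr4:131907848-131909601) and are 96.6% identical, so reads may be divided between them. Snora64 was at 60.3 and 91.1 FPKM, Snora70 at 75.2 and 71.0, and Snora65 at 76.6 and 59.2, which shows abundant rows on either side of equality.

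The further box C/D rows stayed within the mark. Snord14a, in Rps13, was at 17.6 and 19.5 FPKM. Snord35b was at 18.4 and 25.3 FPKM, and Snord4a, in Rpl23a, at 18.8 and 25.3. Snord55 was at 14.9 and 12.1 FPKM. These 4 lay on both sides of equality, as did the 2 snoRNAs of Hspa8, a heat shock protein gene: Snord14d was at 54.7 and 72.4 FPKM and Snord14e at 65.8 and 44.4. Snord47, in the noncoding gene Gas5, was at 36.9 and 66.7 FPKM, and Snord8, in Chd8, at 4.42 and 9.77, both just within the mark on FPKM + 1, although the plain ratio of Snord8 was 2.21. Snord87, in Snhg6, was at 13.5 and 13.8 FPKM. Snord1b and Snord1c, 97.4% identical copies at 1 locus, were at 31.5 and 26.6 FPKM and at 30.1 and 25.4. Snord89 was at 7.10 and 3.19 FPKM, a plain ratio of 2.22 toward expansion with a log2 ratio of -0.95 on FPKM + 1.

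The other box H/ACA rows also lay within the mark. Those with lower values in maturation included Snora41, in the elongation factor gene Eef1b2, at 32.4 and 16.9 FPKM, and Snora7a, in Rpl32, at 39.9 and 22.5. Snora62, in Rpsa, was at 5.14 and 2.15 FPKM, a low row whose log2 ratio of -0.96 lay close to the mark. Snora16a was at 14.2 and 11.5 FPKM and Snora15 at 8.25 and 6.37. Rows with nearly equal values were Snora3 at 29.7 and 30.0 FPKM, Snora31 at 37.7 and 38.7, and Snora28 at 22.9 and 22.7. Rows with higher values in maturation were Snora68 at 67.3 and 83.3 FPKM, Snora26 at 11.6 and 17.0, Snora21 at 10.2 and 12.5, and Snora75, in Ncl, at 7.91 and 9.69.

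The scaRNAs, which guide modification of spliceosomal snRNAs in Cajal bodies, were mixed. Of 7 rows 2 were higher and 0 lower, beside 3.13% and 6.7% of the 9263 rows, with a median of 0.78 for the 7. Scarna10, within the condensin gene Ncapd2 (chr6:125118025-125141604), was at 19.6 and 133 FPKM, 6.79-fold higher, and Scarna6, within Atg16l1, at 1.54 and 9.47. Scarna13 was at 7.78 and 15.95 FPKM and Scarna8 at 1.66 and 3.57, both with values above equality but below the mark set. Scarna2 was at 44.0 and 42.3 FPKM, Scarna3a at 4.03 and 2.50 and Scarna3b at 4.80 and 2.15. RefSeq gives Scarna10 71 bases and Scarna2 61 bases, whereas the GENCODE transcripts have 325 and 414, so their FPKM levels depend on the model used.

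Rows were also divided by RNA length and by locus, after the values were seen and with no test. Of 22 rows with a RefSeq length of 150 bases or more, 17 were higher and 0 lower, with a median log2 ratio of 1.62. Of 66 shorter rows, 14 were higher and 11 lower, with a median of -0.03. Across the 9263 rows, 3.13% were higher and 6.7% lower. Of the 18 rows whose locus held no row of a longer gene, 13 were higher and 0 lower, and of the 70 rows that shared a locus with one, 18 were higher and 11 lower. Both features overlap with RNA type. Among the guide RNAs, 4 of 8 rows of at least 150 bases were higher and 0 lower, against 11 higher and 11 lower of 63 shorter ones. The long guide rows were Snora23, Snora74a, Snord17 and Scarna6, which were higher, Snora73a, Snora73b and Scarna13, with ratios between 0.57 and 0.95, and Snora78, at 18.7 and 14.7 FPKM. This split depends on the length source. By their GENCODE lengths of 325, 414 and 128 bases, Scarna10, Scarna2 and Snora78 would each fall on the other side of the cut. In the other group the 3 rows shorter than 150 bases, Rn5s, Rnu11 and Rnu6, were all higher. Over the 74 rows above 0 in both groups, length and log2 ratio had a Spearman rho of 0.45, a description over rows that come from the same libraries and include copies. How the recovery of short fragments differed between the libraries was not tested.

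**Figure D3:**
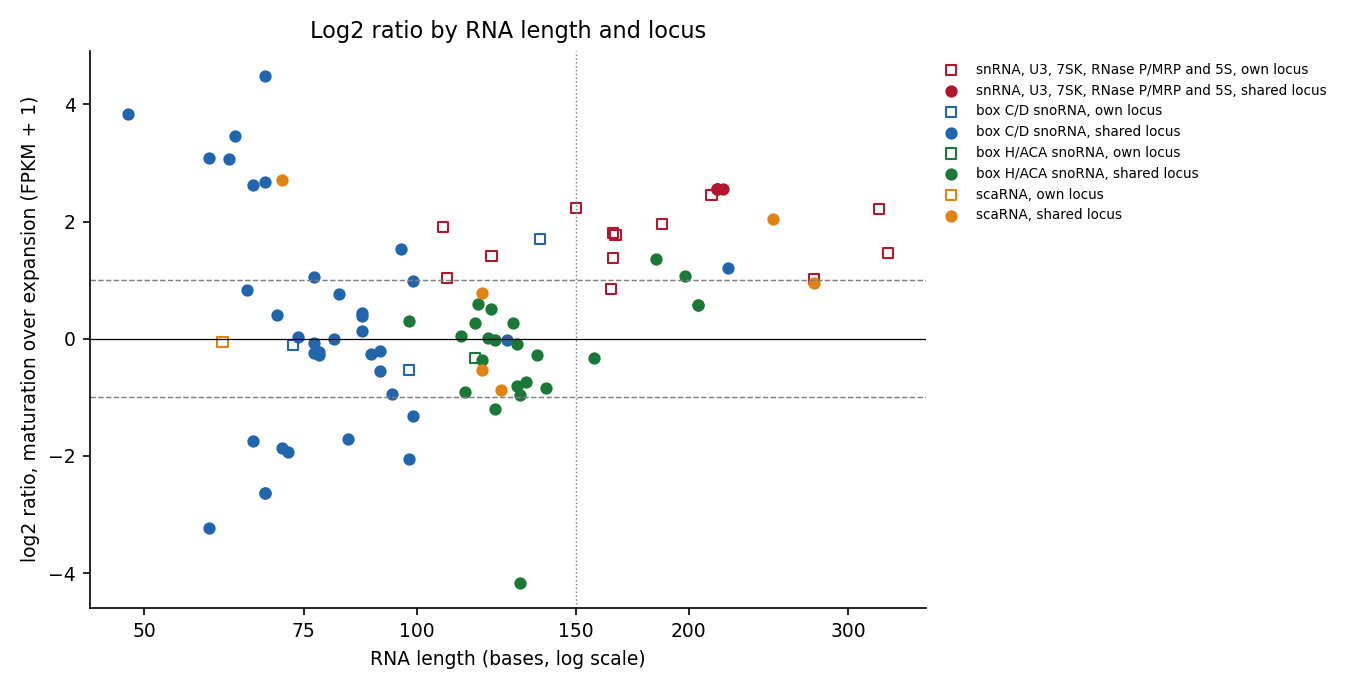
Each point is 1 row, with its length in bases on a log scale (RefSeq, or GENCODE for Rnu73b) against its log2 ratio of maturation over expansion (FPKM + 1); squares are rows with their own locus, filled circles rows that share a locus, the dotted line marks 150 bases and dashed lines ratios of 1 and -1. Right of 150 bases 21 of 22 rows lie above 0, whereas shorter rows lie on both sides.

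MicroRNA rows, another class of very short rows, scattered in both directions. Of 68 that reached 1 FPKM in either group, 20 were higher and 28 lower, beside 3.13% and 6.7% of the 9263 rows. These microRNA rows had a median log2 ratio of -0.38. Their spread, from -3.78 to 6.80, rests on many rows listed at 0 in 1 group, 42 of the 68, which entered through the other group and had to differ. Of the 26 with values above 0 in both groups, 1 was higher and 5 were lower, with a median of -0.04.

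The ratios of guide RNAs were compared with those of the genes that host them. Of the 70 rows with a shared locus, 69 could be paired with 1 longer row there, and these were 55 different rows. GENCODE places 62 of the 88 RNAs in introns and 7 in exons of a longer gene on the same strand, and 18 in no longer gene. Of 54 host rows with an FPKM of at least 1, 0 were higher and 1 was lower, beside 3.13% and 6.7% of the 9263 rows. The lower row was 1110038B12Rik, which holds Snord52 and was at 32.0 and 14.4 FPKM. The median log2 ratio of the 54 host rows was -0.28, near the -0.25 of all expressed rows. The short RNA differed from its host by at least 1 on the log2 scale in 31 of 69 pairs, being above it in 21 and below it in 10. Of these 31, 12 were listed at 0 in 1 group, and 4 were the Rnu3b rows against Tex14, whose level near 0 sets its own ratio near 0. Rows listed at 0 had to differ between the groups, though not by that much from the host. Snord23, listed at 0 in maturation, had a difference of -0.63 from its host row Gltscr2. Among the 52 guide RNAs above 0 in both groups, 15 differed from the host by at least 1, with 10 above it and 5 below. For these 52, the log2 ratios of guide and host had a Pearson r of 0.39 and a Spearman rho of 0.38, a description over rows that share libraries and in part hosts.

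RNAs from the same host are given side by side. In 4 hosts (Gnb2l1, Rpl3, Rpl13a and Ncl) the RNAs differed by more than 1 on the log2 scale. Each of these hosts held a row listed at 0 in expansion, which entered through maturation and had to differ between the groups. Snord95 and Snord96a lie in introns of Rack1, listed as Gnb2l1 (chr11:48613854-48619743), which encodes a ribosome-bound scaffold protein. Snord95 was listed at 0 and at 21.4 FPKM, Snord96a was at 125 and 119, and the Gnb2l1 row itself was at 350 and 257. Within Rpl13a, which was at 447 and 380 FPKM, Snord34 was listed at 0 and at 5.14 FPKM. The other 3 snoRNAs of that gene lay within the mark: Snord32a at 43.3 and 43.1 FPKM, Snord33 at 31.9 and 55.1, and Snord35a at 47.3 and 39.3. Within Rpl3, at 269 and 203 FPKM, both Snord43 and Snord83b were higher. By contrast the Snora17 and Snora43 pair at the Snhg7 locus was at 57.3 and 34.1 FPKM and at 37.2 and 20.4 FPKM, with Snhg7 at 4.39 and 2.74. Snord57 stood 12.4-fold higher, from a low value of 6.96 FPKM in expansion. Its host Nop56, a core protein of the box C/D particle, was at 37.9 and 35.3 FPKM. The 17 ribosomal protein host rows had log2 ratios between -0.42 and -0.14, and of the 21 snoRNAs within them 3 were higher and 2 lower. Across the 9263 rows, 3.13% were higher and 6.7% lower.

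**Figure D4:**
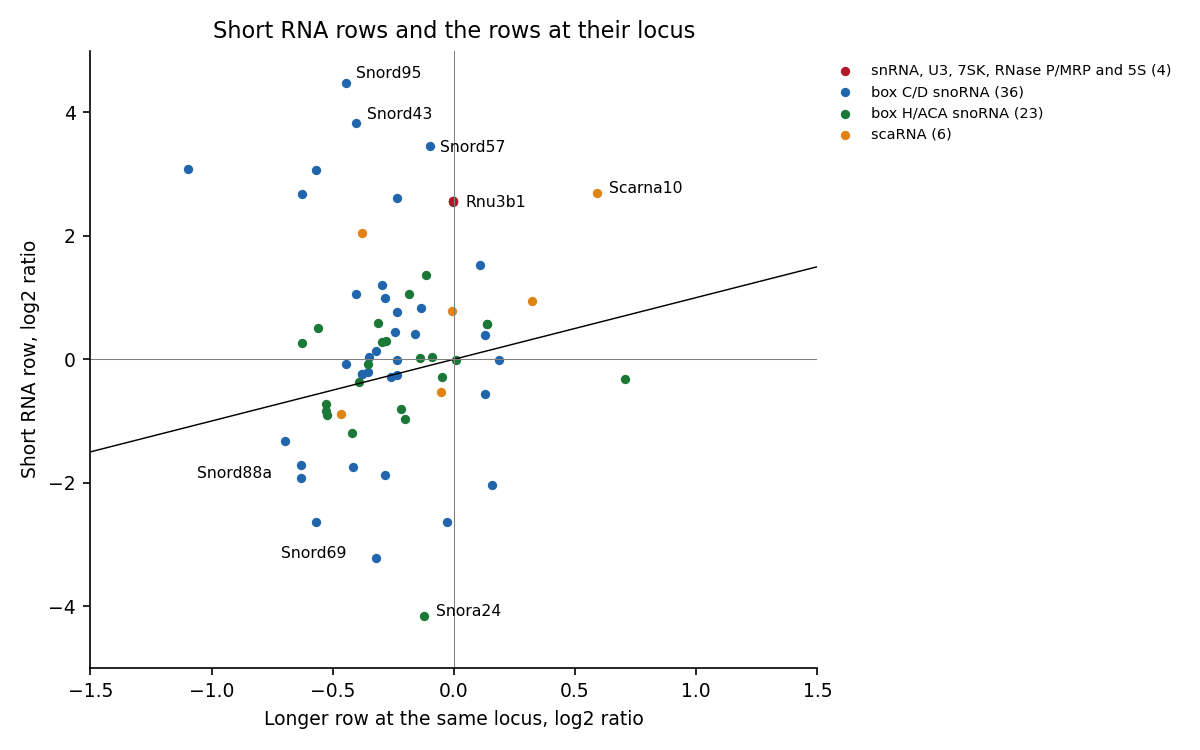
Each point is 1 of 69 short RNA rows, with the log2 ratio of the longer row at its locus on the x axis and its own log2 ratio on the y axis (both maturation over expansion, FPKM + 1); the line marks equal ratios and the axes have different scales. Host rows lie between -1.10 and 0.71, while the short RNAs span -4.16 to 4.49.

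Genes of the proteins that bind, make or process these RNAs are described by 15 lists. These held 215 different rows that reached 1 FPKM in either group, of which Slbp was higher and Rrp9 and Utp14a were lower. Among the 9263 rows, 3.13% were higher and 6.7% lower. Ratios of the list rows were below 0 for 171 of the 215, or 79.5%, beside 74.1% of the 9263 rows. After centring on the median of the 9263 rows, 5 of the 15 list medians were below 0 and 10 above, so the signs of most medians below turn with the centring; those that stay below 0 are the lists of the U3 processome, the box H/ACA particle, the assembly factors, the SMN complex and the 5S particle. The U3 small subunit processome, in which U3 works, had 22 of 24 members below 0 and a median log2 ratio of -0.57, with Utp14a at 8.22 and 3.49 FPKM and Heatr1 at 5.35 and 2.50. In the box C/D particle list, Rrp9, the U3-specific protein, was at 7.85 and 3.31 FPKM, and Fbl, the methyltransferase fibrillarin, at 39.3 and 22.8. All 5 expressed box C/D and all 4 expressed box H/ACA particle proteins had ratios below 0, with medians of -0.23, or 0.02 after centring, and -0.41, or -0.16 after centring, beside -0.25 for the 9263 rows. Nop10 was at 67.2 and 37.3 FPKM. Assembly factors had a median of -0.41, with Naf1 at 6.35 and 2.84 FPKM.

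Proteins of the spliceosomal particles lay closer to 0. The Sm and Lsm proteins, which form rings around snRNAs, had a median of -0.05 with 0 of 17 past the mark. The proteins specific to single snRNPs had a median of -0.19 with 0 of 30 beyond it. Since 3.13% of the 9263 rows were higher and 6.7% lower, few rows past the mark would be usual in lists of this size. Snrnp25, a protein of the minor spliceosome, was at 5.43 and 8.53 FPKM. The SMN complex, which loads Sm proteins, had a median of -0.31, and genes of snRNA transcription and the Integrator had one of -0.20. RNA polymerase III and its factors, which make the 5S, 7SK, U6, RNase P and RNase MRP RNAs, had a median of -0.16 with 0 of 26 past the mark; Polr3gl had the lowest log2 ratio, at -0.81 on FPKM + 1, although its plain FPKM ratio was 0.443. The proteins of RNase P and RNase MRP had a median of 0.05, with Rpp21 at 6.41 and 8.75 FPKM and Pop1 at 2.48 and 1.69. The 7SK partners had a median of -0.24, with Hexim1, the P-TEFb inhibitor, at 3.66 and 2.09 FPKM, and the 5S particle list one of -0.35, with Rrs1 at 11.3 and 5.36. Slbp, which binds histone mRNA ends and stands in the U7 list, was at 14.8 and 34.8 FPKM, and that list had a median of -0.07. The nuclear exosome list had a median of -0.23 and the list of noncoding snoRNA host genes one of -0.12. That host gene list also holds a protein-coding gene, Dnajc27, at 1.57 and 0.940 FPKM.

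**Figure D5:**
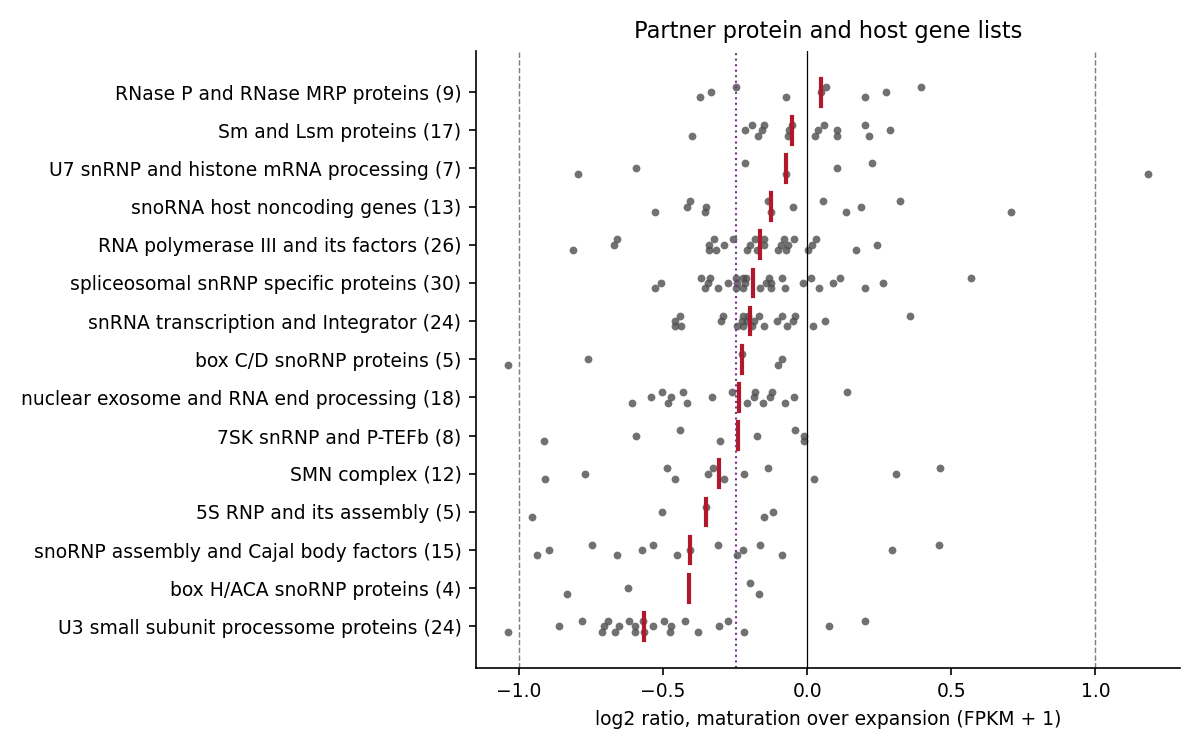
Each point is the log2 ratio of maturation over expansion (FPKM + 1) of 1 gene, by list with the number of expressed rows in brackets; red bars are list medians, dashed lines mark 1 and -1 and the dotted line the median of all expressed rows. List medians run from -0.57 for the U3 processome to 0.05 for RNase P and RNase MRP proteins.

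The cells carried erythroid markers in both groups, with 9 of 11 reaching 1 FPKM in expansion and 11 of 11 in maturation, and their sum was 5022 and 21623 FPKM. Macrophage markers summed to 1.33 and 0.600 FPKM, with 1 of 5 reaching 1 FPKM in expansion and 0 in maturation. The mast cell and basophil markers were Ms4a2, Fcer1a, Cpa3, Hdc, Kit and Il1rl1, of which Kit is not exclusive to these cells. They summed to 41.4 FPKM in expansion, where 5 of 6 reached 1 FPKM, and 3.83 in maturation, where 2 did. Megakaryocyte markers summed to 22.03 and 2.32 FPKM, with 3 of 5 reaching 1 FPKM in expansion and 0 in maturation. Of the lymphocyte and granulocyte markers, 0 of 4 and 0 of 4 reached 1 FPKM. The part of these markers in the differences above was not tested. Fewer cells of a type and less RNA per cell cannot be told apart in such bulk values. FPKM is scaled by transcript length and library size and does not give amounts per cell.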

How the data were processed

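RNA was measured by sequencing in 2 groups, ESREs in expansion and after 1 day of maturation, from libraries made with the Nextflex kit per the labels. Per the file headers, the deposited table gives a single FPKM for each row in either group. The submitters' processing notes name Cuffdiff 2.0.2 and mm9. Not given in the sources used here are the aligner, annotation, depth and any pooling of duplicates. With 1 value per group no test, interval or SD was possible.

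Log2 ratios used a pseudocount of 1, rows had to reach 1 FPKM in either group, and 2-fold marks describe size. Starts in the table were counted from 0, since the span matched the RefSeq length for 15 of 18 rows with their own locus; printed starts count from 1. Sequences and host genes came from GENCODE M21 (GRCm38), lengths from RefSeq (GRCm38.p6), and none of their coordinates are printed. Some sequences and host genes are not reported here. Sequence identity came from global alignments in Biopython 1.88. A longer row at the same locus was the host; where several shared it, the one GENCODE names. The counting step was tested on simulated ratios.

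Named rows were every row of the classes other than guides, rows of at least 10 FPKM, rows listed at 0 in 1 group, the 12 highest and 12 lowest log2 ratios, the 6 rows on either side of the threshold, their host rows and up to 4 genes per partner list; the text gives a selection, and the microRNA rows set beside them were chosen after their values were seen. The members and lists were chosen with earlier results of these data known. Alternatives changed the pseudocount, the filter, the centring, the summing of copies and the rows listed at 0.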

Additional observations from a re-analysis of the deposited data

How the results depend on the processing

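No paired analysis was possible because each group has 1 deposited value, and for the same reason no replicate could be left out. The direction of the snRNA, U3, 7SK, RNase P/MRP and 5S group held in each setting run: its median log2 ratio was 1.74 with a pseudocount of 5, 2.16 after subtraction of the median of the 9263 rows (centring), and 1.74 with copies summed, where 10 RNAs were left and 10 were higher. After centring, the medians were 0.60 for the 88 rows, 0.24 for box C/D, 0.20 for box H/ACA and 1.03 for scaRNA rows, with 1 box H/ACA row lower and 4 scaRNA rows higher. The signs of the box C/D and box H/ACA medians thus depend on the centring. With a pseudocount of 0.1, 4 scaRNA rows were higher and 1 lower, with a median of 1.03; with a pseudocount of 5 the scaRNA median was 0.36, and 0 box H/ACA rows were higher and 1 lower. A minimum FPKM of 5 left 4 scaRNA rows with a median of 1.496. Without rows listed at 0, 5 of the measured rows were lower, among them 4 box C/D rows and 1 box H/ACA row, and 4 box C/D rows were higher. Summing copies moved the median of all rows to 0.15. In a setting added after seeing the data, scaling to the sum of all rows other than these and microRNA rows, the medians were 0.47 for the 88 rows, 0.11 for box C/D and 0.072 for box H/ACA. The share of the summed FPKM was 2.42% and 7.06% when microRNA rows were left out of the total, and 1.45% and 4.09% without Rn5s. Over the single rows, the call by the 2-fold mark stayed for 82 of 88 with a pseudocount of 0.1, for 77 with one of 5 and for 81 after centring, and 0 changed direction past it.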
